A study of Homo sapiens with 60 samples.

Results

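The 9 genes described here are GCLC, GCLM, SLC7A11, GSR, TXNRD1, SRXN1, NQO1, OSGIN1 and NFE2L2, the glutathione and thioredoxin branch of the oxidative stress response governed by NRF2. They were chosen by symbol from the 60675 genes of the deposited count table, each matched 1 row, and all 9 passed the filter on low counts. They were followed in 60 RNA-seq libraries of HepG2, a human hepatoma cell line used widely as a hepatocyte model, which had received an ethanol extract of 1 herbal material or formula, or DMSO vehicle, for 24 h. Coptidis Rhizoma and Bupleuri Radix were given at 11.2, 56 and 280 µg/mL, where by the labels 280 µg/mL was the concentration that held back growth by 20%. Zizyphi Fructus, Citri Unshius Pericarpium, Cimicifugae Rhizoma, Aconiti Lateralis Radix Preparata and the formulas Yijung-tang and Banhasasim-tang were given at 20, 100 and 500 µg/mL. Each dose had 2 libraries for Coptidis, Zizyphi and Yijung-tang, 3 for Citri, Cimicifugae, Bupleuri and Aconiti, and 1 for Banhasasim-tang, and 3 libraries were vehicle. The labels and the series text state different DMSO percentages, and titles and descriptions give the Coptidis and Zizyphi libraries different batch letters. Neither point was settled here.

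NRF2, the transcription factor encoded by NFE2L2, is held at low protein levels by the adaptor KEAP1, which presents it to a CUL3 and RBX1 ubiquitin ligase. Oxidants and electrophiles modify KEAP1, NRF2 protein then accumulates, pairs with a small MAF protein and binds antioxidant response elements beside its target genes. In liver cells these targets supply glutathione and reduced thioredoxin, which detoxify peroxides and reactive plant or drug metabolites. Control therefore acts largely on NRF2 protein, which RNA-seq does not measure.

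The libraries held 18015555 to 29549531 counts. Hepatocyte genes ranged widely, with ALB at 7350 to 12011 CPM (counts in a scaled library of 1e+06). SERPINA1 was at 3821 to 5867 CPM, AFP at 2029 to 4337 CPM and APOA1 at 650 to 3080 CPM. FGB, at 52.6 to 286 CPM, and TTR, at 14.0 to 69.6 CPM, were the lowest of the hepatocyte genes read. The leukocyte marker PTPRC was at 0 in each library. The cholangiocyte marker KRT7 reached at most 0.563 CPM, the fibroblast marker COL1A1 3.14 CPM and the endothelial marker PECAM1 4.71 CPM, whereas CD68, a macrophage marker, was at 20.1 to 79.9 CPM. Of 2 libraries that stood apart, the single Banhasasim-tang library at 20 µg/mL had 37.1% of the tested genes at least 2-fold from the vehicle mean. Its share of mitochondrial ribosomal RNA was 0.485%, against 2.52% ± 0.0757 in vehicle (SD, n = 3). The other was replicate 3 of Bupleuri at 11.2 µg/mL, with 9.10% of genes at least 2-fold from the vehicle mean, against 2.64% and 2.55% in its replicates. Mitochondrial ribosomal RNA was also high in Coptidis, at 11.7%, 10.9% and 5.55% from the low to the high dose, and in Banhasasim-tang at 100 and 500 µg/mL, at 8.01% and 11.8%. Its part in the results below was not tested. Nothing in the labels states that replicates came from separate cultures, so p-values measure only the spread between libraries, which can be technical. All titles, those of vehicle included, carry the batch letter D. Sample codes in the titles begin with D1 for vehicle and with 11 to 14 for the extracts. This first part is called the set here, and the titles do not say what it stands for. Vehicle thus forms a set apart, so treatment and set cannot be told apart against it, while all doses of an extract share a set. CPM is a share of a library, so more RNA of a gene per cell and less of the rest cannot be told apart.

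Promoter sequences were read for 7 of the 9 genes from RefSeq (GRCh38.p14, 250 bases before to 50 after the start). The core of the antioxidant response element, spelled TGACNNNGC here and searched on both strands, occurred in 3 of their 9 promoters, those of GCLM and the 2 of TXNRD1. Of all 35116 promoters of that length 13.3% held it, and 1.13% held it at least 2 times. These 3 promoters are shown because they hold the motif, with the matches in capitals, which are descriptions of letters and not measured binding sites. GCLC, SRXN1, NQO1 and OSGIN1, whose windows lacked the motif, also rose at the high dose of Coptidis, Bupleuri, Cimicifugae, Aconiti and Yijung-tang. NFE2L2, whose windows lacked it too, rose at the high dose of Coptidis and fell at that of the others. In Citri GCLM, TXNRD1, SRXN1 and OSGIN1 rose at the high dose, while GCLC and NQO1 were not called. The GCLM promoter lies at chr1:93909381-93909680 on the minus strand, with its match 34 to 26 bases before the start. The first TXNRD1 promoter lies at chr12:104215529-104215828 and the second at chr12:104286782-104287081, both on the plus strand.
GCLM: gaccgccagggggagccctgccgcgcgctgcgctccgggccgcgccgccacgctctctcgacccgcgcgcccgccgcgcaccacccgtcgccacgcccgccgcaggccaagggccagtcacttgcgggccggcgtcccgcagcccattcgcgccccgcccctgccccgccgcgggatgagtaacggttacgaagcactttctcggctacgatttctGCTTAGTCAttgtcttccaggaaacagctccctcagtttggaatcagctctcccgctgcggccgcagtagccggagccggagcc
TXNRD1, first start: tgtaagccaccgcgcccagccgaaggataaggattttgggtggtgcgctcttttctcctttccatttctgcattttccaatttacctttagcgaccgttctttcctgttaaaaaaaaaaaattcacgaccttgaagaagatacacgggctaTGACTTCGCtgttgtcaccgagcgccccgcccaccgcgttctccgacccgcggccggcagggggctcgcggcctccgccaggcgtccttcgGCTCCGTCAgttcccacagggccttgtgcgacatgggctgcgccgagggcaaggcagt
TXNRD1, second start: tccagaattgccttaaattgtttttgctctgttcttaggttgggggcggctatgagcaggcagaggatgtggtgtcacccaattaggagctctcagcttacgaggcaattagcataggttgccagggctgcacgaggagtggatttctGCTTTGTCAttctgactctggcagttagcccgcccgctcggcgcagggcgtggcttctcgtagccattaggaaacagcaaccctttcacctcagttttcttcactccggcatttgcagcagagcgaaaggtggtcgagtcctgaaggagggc

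The letters of the motif were not found in the windows of GCLC, SRXN1, NQO1, OSGIN1 and NFE2L2, which says nothing of elements further away. On GRCh38 with GENCODE 29, SLC7A11 spans chromosome 4, 138164097 to 138242349, GCLC chromosome 6, 53497341 to 53616970, and GCLM chromosome 1, 93885205 to 93909456. TXNRD1 spans chromosome 12, 104215779 to 104350305, SRXN1 chromosome 20, 646615 to 653370, and GSR lies on chromosome 8. NQO1 and OSGIN1 are both on chromosome 16, at 69706996 to 69726951 and 83948282 to 83966332, and NFE2L2 spans chromosome 2, 177227595 to 177392697. The deposited estimates of NQO1 and NFE2L2 were not whole numbers in 96.7% and 98.3% of the libraries, so reads shared with other sequences enter them and their levels are uncertain. NFE2L2 overlaps exons of AGPS on the opposite strand, which had up to 5027 counts in a library, the most of any gene overlapping a member. NQO1 and SLC7A11 each overlap an antisense transcript, with at most 256 and 132 counts in a library. GCLC shares exons with a long non-coding RNA on its own strand that had at most 587 counts. The kit marks strand, but no strand setting of the counting was found in the labels, so reads of such pairs cannot be told apart.

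In vehicle-treated cells NQO1 was the most abundant of the 9 per unit of transcript length, at 670 ± 21.5 TPM (abundance per transcript length, scaled to 1e+06; SD, n = 3). GSR followed at 156 ± 4.15 TPM, then NFE2L2 at 150 ± 1.34 TPM, SRXN1 at 125 ± 3.92 TPM and TXNRD1 at 113 ± 4.75 TPM. GCLC (39.1 ± 0.130 TPM), OSGIN1 (37.4 ± 0.753 TPM), GCLM (33.8 ± 1.60 TPM) and SLC7A11 (18.5 ± 0.785 TPM) were lower. In each neighbouring pair of this order the ranges of the 3 libraries did not overlap. The order differed under Coptidis at 280 µg/mL (n = 2), where NQO1 stood at 1947 ± 22.6 TPM, TXNRD1 at 751 ± 10.6 TPM, SRXN1 at 739 ± 0.466 TPM and SLC7A11 at 330 ± 19.0 TPM. There GCLC at 155.6 ± 3.03 TPM and GCLM at 155.4 ± 1.61 TPM did not differ beyond their spread.

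All 9 genes rose under Coptidis at 280 µg/mL, where 34.5% of all tested genes were called higher by edgeR's quasi-likelihood test at an adjusted p under 0.05. The median log2 fold change of the 9 was 2.29, beside 0.00 over all tested genes. SLC7A11, which imports the cystine used for glutathione, stood at 1076 and 1032 CPM under Coptidis, against 56.6, 56.8 and 53.6 CPM in vehicle. That is a log2 fold change of 4.25 ± 0.09 (SE; adjusted p = 5.15e-35) or 19.0-fold, and the groups were far apart. It stood at 146 and 127 CPM at 11.2 µg/mL and at 326 and 350.3 CPM at 56 µg/mL, so each step up in dose separated the libraries.

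The 2 subunits of glutamate-cysteine ligase, the rate-limiting enzyme of glutathione synthesis, both rose. GCLC, the catalytic subunit, had 443 and 448 CPM under Coptidis at 280 µg/mL, against 107, 104 and 106 CPM in vehicle, a log2 fold change of 2.08 ± 0.05 (adjusted p = 2.33e-34). GCLM, the modifier subunit, had 276 and 283 CPM, against 57.5, 59.0 and 55.1 CPM in vehicle, a log2 fold change of 2.29 ± 0.05 (adjusted p = 3.73e-34). Both lay well above every vehicle library. GSR, which returns oxidised glutathione to its reduced form, moved less, with 356 and 346 CPM under Coptidis, against 180.3, 183 and 189 CPM in vehicle and a log2 fold change of 0.94 ± 0.04.

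On the thioredoxin side, TXNRD1, the cytosolic thioredoxin reductase, stood at 1654 and 1687 CPM under Coptidis at 280 µg/mL, against 237, 244 and 231 CPM in vehicle, 7.05-fold higher (log2 2.82 ± 0.05, adjusted p = 4.73e-39). SRXN1, which restores overoxidised peroxiredoxins, stood at 648 and 673 CPM, against 105, 107 and 104 CPM in vehicle, 6.27-fold higher (log2 2.65 ± 0.04, adjusted p = 1.36e-39). Neither gene's groups overlapped. NQO1, a quinone reductase, had 2041 and 2159 CPM under Coptidis, against 677, 694 and 674 CPM in vehicle, 3.09-fold higher. OSGIN1, an oxidative stress-induced growth inhibitor, had 217 and 214 CPM, against 41.5, 40.1 and 39.8 CPM in vehicle, 5.33-fold higher. The gene of NRF2 itself, NFE2L2, moved least, with 333 and 311 CPM, against 280.2, 277 and 282 CPM in vehicle (log2 0.20 ± 0.04, adjusted p = 1.65e-05).

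At the lower Coptidis doses the same order of size held in part. At 56 µg/mL 8 of the 9 rose, where 26.1% of all genes were called higher, with log2 fold changes from 0.41 (GSR) to 2.61 (SLC7A11). NFE2L2 was at 0.04 ± 0.04 (adjusted p = 0.463). At 11.2 µg/mL all 9 rose, where 17.1% of all genes were called higher, with OSGIN1 at 0.79 ± 0.08 and SLC7A11 at 1.30 ± 0.09. At that dose TXNRD1, at 285 and 264 CPM, was 1.16-fold higher, whereas at 56 µg/mL it stood at 516 and 559 CPM. Without replicate 2 of the 11.2 µg/mL dose the adjusted p there was 0.0541 for TXNRD1 and reached 0.201 for GCLC (0.16 ± 0.05), whose call also ended without vehicle replicate 2.

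**Figure D1:**
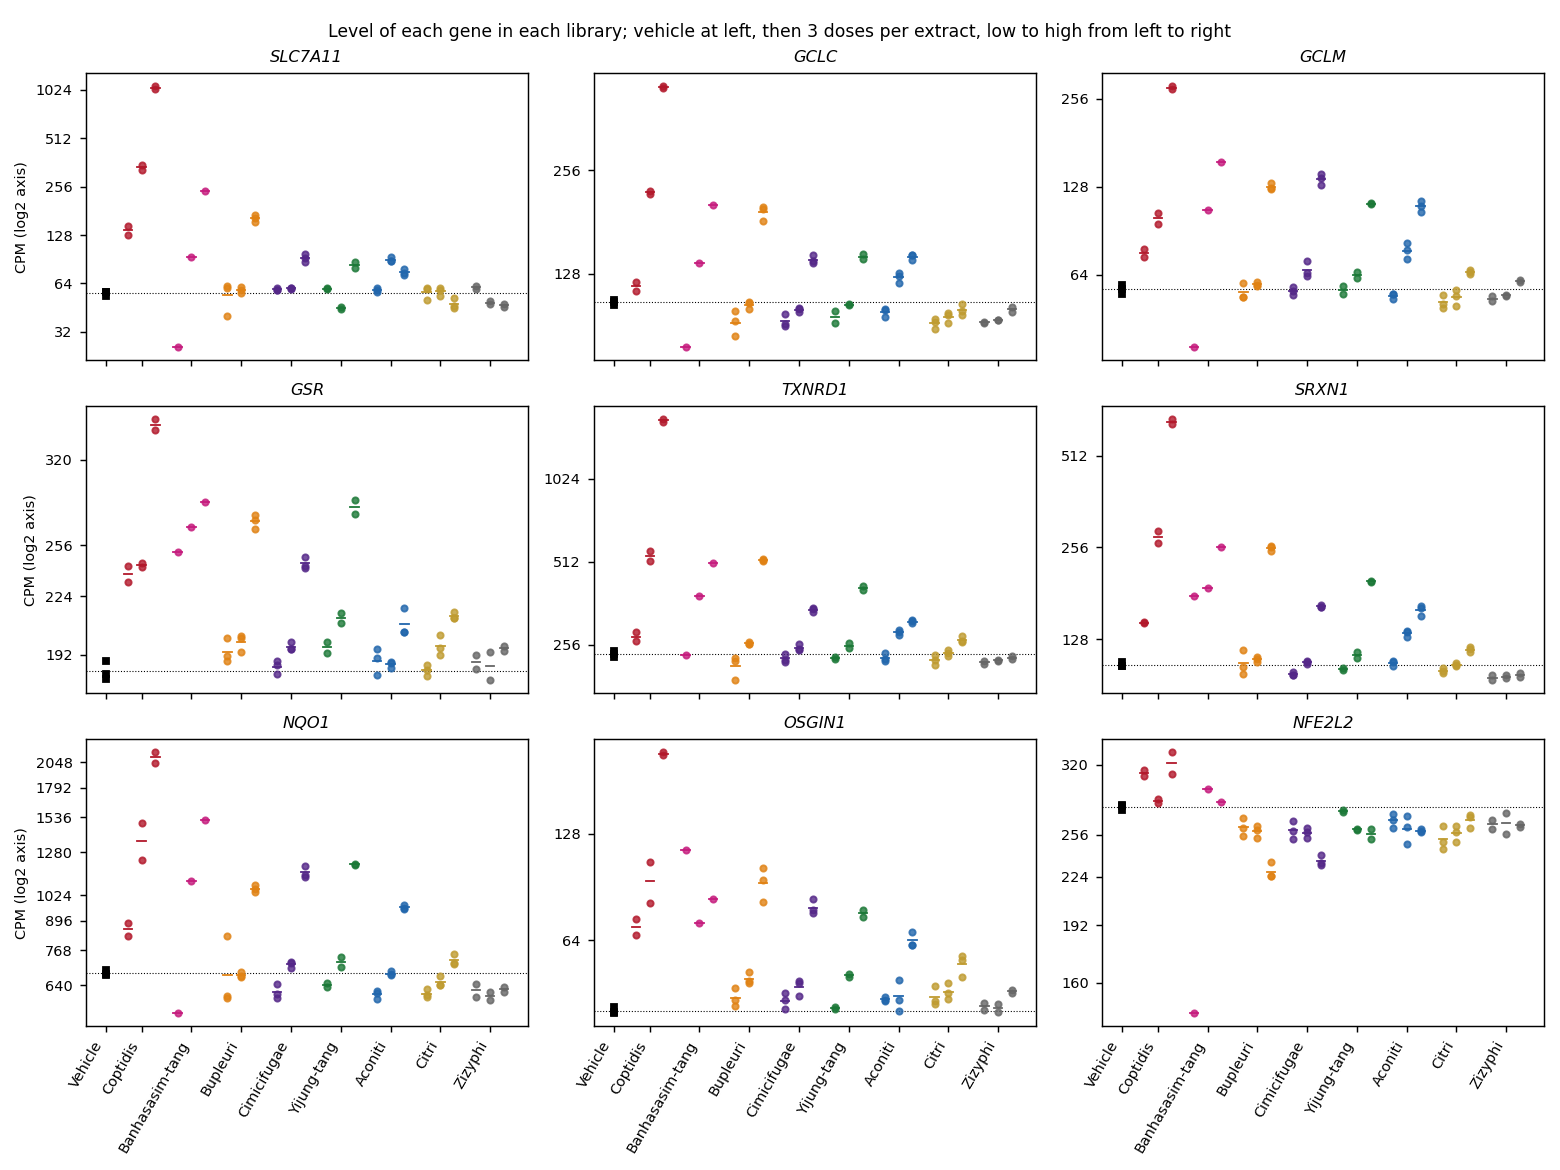
Each panel plots 1 gene in CPM on a log2 axis, with a point per library, a short line at each group's mean, vehicle as squares and a dotted line at the vehicle mean. Coptidis at 280 µg/mL has the highest group mean for all 9 genes, and the NFE2L2 panel spans a narrower range, apart from the Banhasasim-tang library at 20 µg/mL.

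Under Bupleuri at 280 µg/mL 8 of the 9 rose and NFE2L2 fell, where 19.9% of all genes were called higher and 19.1% lower. SLC7A11 had 164, 171 and 153 CPM under Bupleuri, against 56.6, 56.8 and 53.6 CPM in vehicle, a log2 fold change of 1.54 ± 0.08. SRXN1 (1.27 ± 0.04), OSGIN1 (1.20 ± 0.08), GCLM (1.16 ± 0.05) and TXNRD1 (1.13 ± 0.04) more than doubled. GCLC (0.87 ± 0.05), NQO1 (0.63 ± 0.06) and GSR (0.57 ± 0.03) rose less. NFE2L2 had 235, 224 and 224 CPM, each library below all 3 of vehicle, a log2 fold change of −0.30 ± 0.04 (adjusted p = 3.28e-09).

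In Cimicifugae at 500 µg/mL, again 8 rose and NFE2L2 fell, where 12.1% of all genes were called higher and 10% lower. GCLM led, with 138, 142 and 130.4 CPM under Cimicifugae, against 57.5, 59.0 and 55.1 CPM in vehicle (log2 1.25 ± 0.05, adjusted p = 2.47e-23). OSGIN1 had a log2 fold change of 0.97 ± 0.08, NQO1 of 0.76 ± 0.06 and SLC7A11 of 0.73 ± 0.08. The partner subunit GCLC was at 0.41 ± 0.05, GSR at 0.40 ± 0.03, and NFE2L2 at −0.25 ± 0.04. No member's high-dose libraries overlapped those of vehicle, but the share of all genes for which this held was not counted.

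Yijung-tang at 500 µg/mL gave 8 rises and a small fall of NFE2L2, where 9.49% of all genes were called higher and 7.84% lower. GCLM had 113 and 112 CPM, against 57.5, 59.0 and 55.1 CPM in vehicle (0.98 ± 0.06), OSGIN1 was at 0.92 ± 0.08 and SRXN1 at 0.91 ± 0.04. NQO1 (0.83 ± 0.07), TXNRD1 (0.80 ± 0.05), GSR (0.63 ± 0.04), SLC7A11 (0.59 ± 0.09) and GCLC (0.45 ± 0.05) also rose. Aconiti at 500 µg/mL gave the same split, where 11.2% of all genes were called higher and 12% lower. GCLM was at 0.94 ± 0.05, OSGIN1 at 0.66 ± 0.08 and SRXN1 at 0.60 ± 0.04, while GSR was at 0.18 ± 0.03. The NFE2L2 falls were small in both, −0.12 ± 0.04 in Yijung-tang (adjusted p = 0.0359) and −0.11 ± 0.04 in Aconiti (adjusted p = 0.0224). Without vehicle replicate 1, the adjusted p was 0.0856 in Yijung-tang and 0.0664 in Aconiti. Leaving out either of the other vehicle libraries also ended the Yijung-tang call (0.0518 and 0.0845), as did leaving out Yijung-tang replicate 1 (0.066) or 2 (0.338). The Aconiti call also ended without vehicle replicate 3 (0.0641) or Aconiti replicate 2 (0.0577).

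In Citri at 500 µg/mL 5 of the 9 rose, where 7.73% of all genes were called higher. OSGIN1 had 57.9, 56.5 and 50.4 CPM under Citri, against 41.5, 40.1 and 39.8 CPM in vehicle (0.44 ± 0.08, adjusted p = 8.49e-05), and the groups did not overlap. GSR (0.21 ± 0.03), GCLM (0.19 ± 0.05), TXNRD1 (0.17 ± 0.04) and SRXN1 (0.17 ± 0.04) were small rises. For GCLM the adjusted p was 0.0529 without vehicle replicate 3. SLC7A11 had 45.4, 52.0 and 46.5 CPM, each below the vehicle libraries, with a log2 fold change of −0.21 ± 0.09 that missed the threshold (adjusted p = 0.0859).

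Zizyphi at 500 µg/mL had 0 of 9 called by edgeR and 0 by DESeq2, where 3.63% of all genes were called. At an unadjusted edgeR p under 0.05 there were 5 of the 9, beside 3046 of all 16675 tested genes. SLC7A11 had 47.8 and 46.0 CPM, both below every vehicle library, a log2 fold change of −0.25 ± 0.10 (adjusted p = 0.132). OSGIN1 stood at 0.18 ± 0.09 and GCLM at 0.08 ± 0.06.

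**Figure D2:**
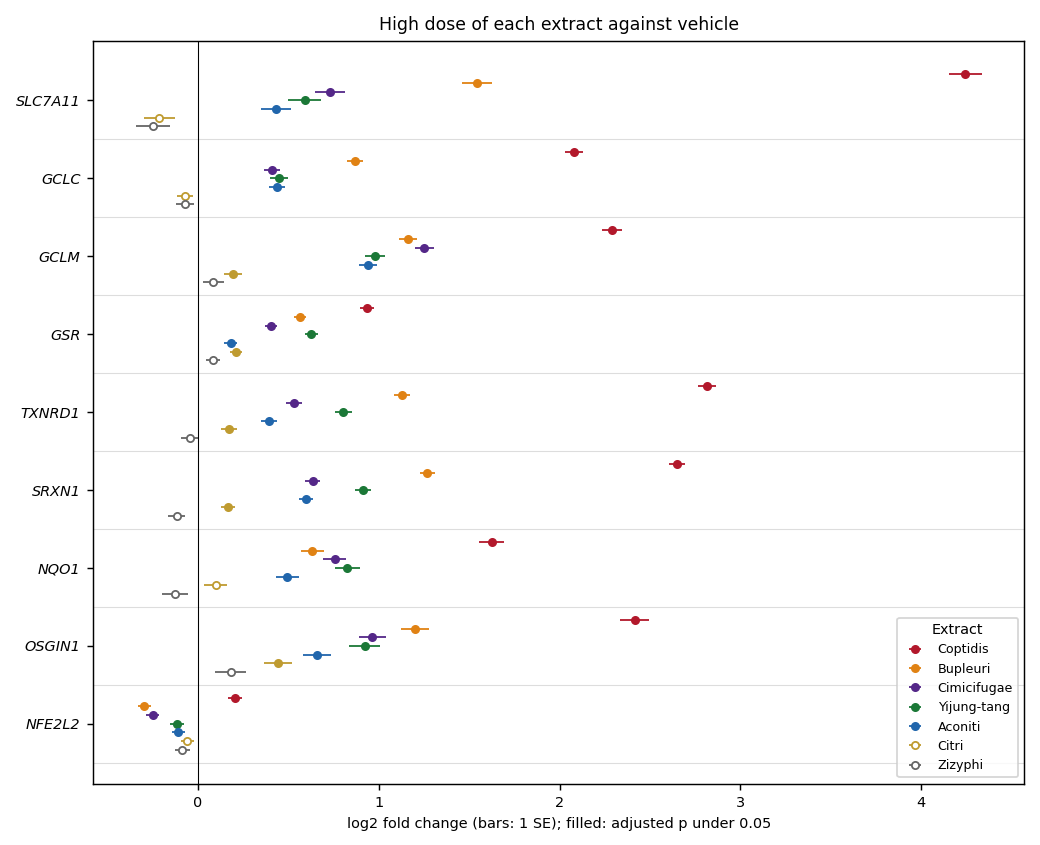
Log2 fold changes against vehicle at the high dose of the 7 extracts with replicates, 1 row per gene and colour per extract, with bars of 1 SE and filled points at an adjusted p under 0.05. Coptidis runs from 0.20 (NFE2L2) to 4.25 (SLC7A11), while the Zizyphi points are unfilled.

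Because high and low doses share a set, the same genes were set against the low dose of their own extract. Coptidis kept 8 rises there, where 30.9% of all genes were called higher, from 0.56 ± 0.04 (GSR) to 2.94 ± 0.10 (SLC7A11), with NFE2L2 at 0.04 ± 0.04. Bupleuri kept 8 rises and the fall of NFE2L2 (−0.20 ± 0.04), where 20.2% of all genes were called higher and 20% lower. Cimicifugae did likewise, where 4.41% were called higher and 2.73% lower, with GCLM at 1.27 ± 0.05, NQO1 at 0.90 ± 0.06 and NFE2L2 at −0.14 ± 0.04. The NFE2L2 value had an adjusted p of 0.00714, and of 0.074 without Cimicifugae low replicate 1. In Aconiti 8 rose, where 6.77% were called higher, led by GCLM at 1.01 ± 0.05. GSR, at 0.14 ± 0.03, had an adjusted p of 0.0542 without Aconiti high replicate 3. In Yijung-tang 8 rose, where 3.98% were called higher, led by GCLM (0.99 ± 0.06), SRXN1 (0.96 ± 0.05) and NQO1 (0.92 ± 0.08).

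In Citri 6 rose between its low and high dose, where 0.252% of all genes were called higher, from 0.21 ± 0.03 (GSR) to 0.34 ± 0.05 (GCLM). The calls of NQO1 (0.25 ± 0.06, adjusted p = 0.0355) and OSGIN1 (0.31 ± 0.08, adjusted p = 0.0271) rested on single libraries. Leaving out any 1 of the 6 Citri libraries gave NQO1 an adjusted p of 0.081 to 0.219, and leaving out high replicate 1 or 2 or low replicate 2 or 3 gave OSGIN1 one of 0.145 to 0.227. Zizyphi had 0 of 9 called by edgeR and by DESeq2, where 0.006% of all genes were called. At an unadjusted edgeR p under 0.05 Zizyphi had 3 of the 9, beside 461 of all 16675 tested genes. Its largest value was SLC7A11 at −0.37 ± 0.10.

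**Figure D3:**
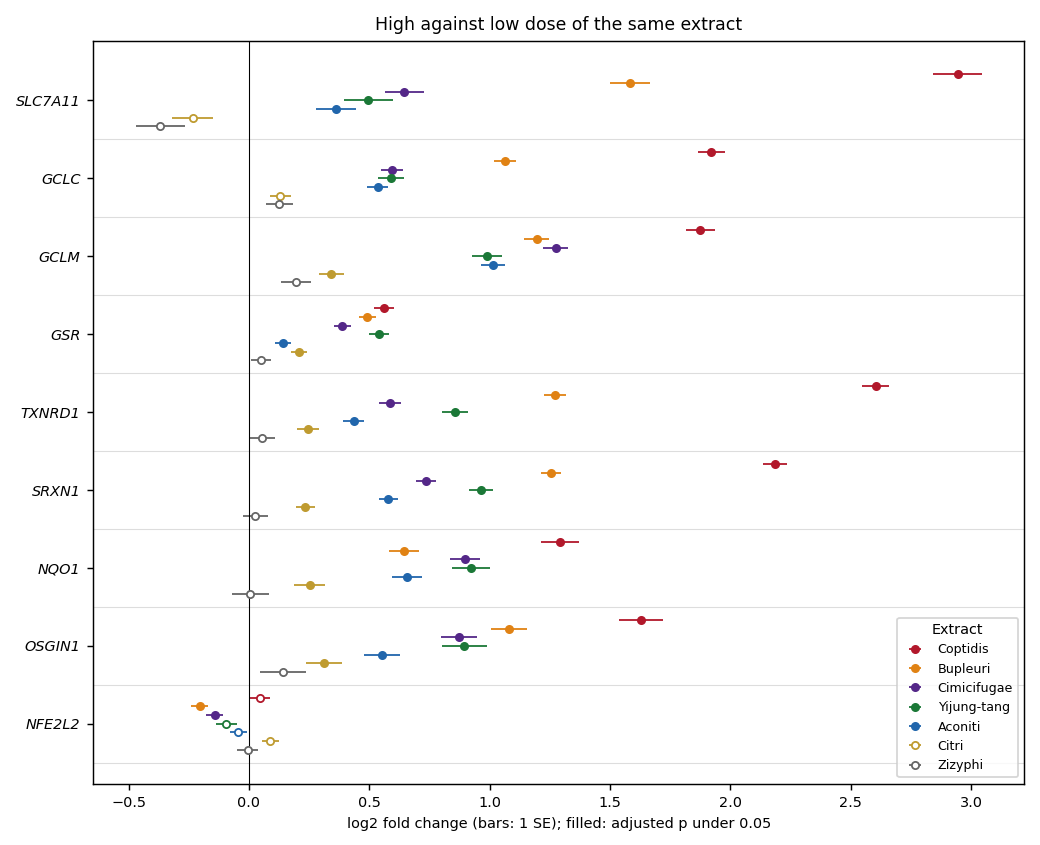
Log2 fold changes of the high against the low dose of the same extract, with bars of 1 SE and filled points at an adjusted p under 0.05. GCLM is filled in 6 of the 7 extracts, and SLC7A11 runs from −0.37 in Zizyphi to 2.94 in Coptidis.

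Below the high dose, 0 to 6 of the 9 genes were called by edgeR per comparison with vehicle in extracts other than Coptidis. Under Aconiti at 100 µg/mL 5 rose, where 10.6% of all genes were called higher, and NFE2L2 fell (−0.10 ± 0.04), where 10.3% were called lower. SLC7A11 had 94.0, 88.0 and 88.4 CPM at that dose and 72.4, 74.0 and 78.8 CPM at 500 µg/mL, so the middle dose stood higher, a difference that was not tested. Under Bupleuri at 56 µg/mL OSGIN1 (0.30 ± 0.08), TXNRD1 (0.13 ± 0.04) and GSR (0.11 ± 0.03) rose, where 5.44% were called higher, and NFE2L2 (−0.11 ± 0.04) fell, where 5.49% were called lower. Under Yijung-tang at 100 µg/mL OSGIN1 (0.33 ± 0.09) and GSR (0.20 ± 0.04) rose, where 3.6% were called higher, and SLC7A11 (−0.31 ± 0.10) fell, where 2.65% were called lower. Under Cimicifugae at 100 µg/mL GCLM (0.22 ± 0.05) rose, where 5.57% were called higher, and NFE2L2 (−0.12 ± 0.04) fell, where 5.12% were called lower. Many of these small calls ended when 1 library was left out. In Bupleuri at 56 µg/mL the calls of TXNRD1 (adjusted p up to 0.182) and NFE2L2 (up to 0.152) ended without any 1 of the 6 libraries, and that of GSR without vehicle replicate 1 or 2 or Bupleuri replicate 1 or 2 (up to 0.119). In Yijung-tang at 100 µg/mL the call of SLC7A11 ended without any 1 of the 5 libraries (up to 0.298) and that of OSGIN1 without either Yijung-tang library (up to 0.117). The call of NFE2L2 ended in Cimicifugae at 100 µg/mL without any library other than Cimicifugae replicate 1 (up to 0.107), and in Aconiti at 100 µg/mL without any other than Aconiti replicate 3 (up to 0.286). GCLM in Cimicifugae had an adjusted p of 0.0597 without Cimicifugae replicate 1.

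GCLC was low at several low doses. It fell by 0.20 ± 0.05 on the log2 scale in Bupleuri at 11.2 µg/mL, where 10.5% of all genes were called lower, with 99.7, 93.0 and 84.1 CPM under Bupleuri, against 107, 104 and 106 CPM in vehicle. It also fell by 0.20 ± 0.05 in Zizyphi at 20 µg/mL, where 1.07% were called lower. It fell by 0.20 ± 0.05 in Citri at 20 µg/mL, where 7.56% were called lower, by 0.14 ± 0.05 in Citri at 100 µg/mL, where 4.97% were, and by 0.18 ± 0.05 in Cimicifugae at 20 µg/mL, where 3.15% were. These comparisons share the vehicle libraries. TXNRD1 fell in Bupleuri at 11.2 µg/mL (−0.14 ± 0.04), with an adjusted p of 0.278 without Bupleuri replicate 3, the library that stood apart, and the call also ended without vehicle replicate 1 or 2. Without Bupleuri replicate 3, GCLC was at −0.13 (adjusted p = 0.0328) while NQO1 (−0.18, adjusted p = 0.00418) and NFE2L2 (−0.11, adjusted p = 0.0313), not called with it, passed the threshold. For GCLC the call ended in Zizyphi without any 1 of the 5 libraries (adjusted p up to 0.303) and in Citri at 100 µg/mL without any other than Citri replicate 3 (up to 0.204). In Cimicifugae at 20 µg/mL it ended without vehicle replicate 1 or Cimicifugae replicate 2 or 3 (up to 0.0728). In Citri GCLM (−0.15 ± 0.05) and NFE2L2 (−0.15 ± 0.04) fell at 20 µg/mL, and NFE2L2 (−0.12 ± 0.04) at 100 µg/mL. The GCLM call ended without vehicle replicate 1 or 2 or Citri replicate 1 or 3 (up to 0.194), and the NFE2L2 call at 100 µg/mL without vehicle replicate 1 or 3 or Citri replicate 1 or 2 (up to 0.146). Zizyphi at 100 µg/mL had 0 of 9 called by edgeR, where 1.93% of all genes were. At an unadjusted p under 0.05 there were 4, beside 2631 of all 16675 tested genes. Aconiti at 20 µg/mL and Yijung-tang at 20 µg/mL also had 0 called by edgeR, where 9.9% and 1.69% of all genes were called. Each had 2 at an unadjusted p under 0.05, beside 3968 and 2214 of all 16675 tested genes. These 3 comparisons were not run in DESeq2.

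These counts of 0 rested on Bupleuri low replicate 3, which enters the estimate of the spread. Without it GCLC (−0.17, adjusted p = 0.0122), SRXN1 (−0.13, adjusted p = 0.0298) and NQO1 (−0.17, adjusted p = 0.0109) were called lower in Zizyphi at 100 µg/mL. NQO1 was then called lower in Aconiti at 20 µg/mL (−0.16, adjusted p = 0.00239) and GCLC in Yijung-tang at 20 µg/mL (−0.14, adjusted p = 0.0434). Over the 14 comparisons of a medium or low dose with vehicle, 16 values gained a call without that library and 1, that of TXNRD1 in Bupleuri, lost it. NQO1 was called lower in 5 of the 14 without it and in 0 with it. How many of all genes gained a call in these 14 was not counted. At the high dose against vehicle, leaving that library out raised the number of all genes called in each replicated extract. In Zizyphi that number went from 606 to 1724 and in Citri from 2375 to 3694.

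Cimicifugae and Citri share a set and doses, which allows a direct comparison. At 500 µg/mL Cimicifugae was higher for 8 genes and lower for NFE2L2, where 2.88% of all genes were called higher and 1.19% lower. GCLM had 138, 142 and 130.4 CPM in Cimicifugae, against 66.5, 64.4 and 65.4 CPM in Citri (log2 1.06 ± 0.05, adjusted p = 1.90e-20). SLC7A11 had 86.8, 97.7 and 92.7 CPM in Cimicifugae, against 45.4, 52.0 and 46.5 CPM in Citri (0.94 ± 0.08). NQO1 differed by 0.66 ± 0.06, OSGIN1 by 0.52 ± 0.07, GCLC by 0.48 ± 0.05, SRXN1 by 0.47 ± 0.04, TXNRD1 by 0.36 ± 0.04 and GSR by 0.19 ± 0.03. NFE2L2 differed by −0.19 ± 0.04. At 100 µg/mL GCLM alone differed (0.31 ± 0.05), where 0.018% of all genes were called higher. That call ended without replicate 1 of either extract (adjusted p up to 0.106). At 20 µg/mL 0 of 9 were called by edgeR, where 0.006% of all genes were, and DESeq2 was not run there. At an unadjusted edgeR p under 0.05 there was 1, beside 674 of all 16675 tested genes.

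The change between low and high dose itself was larger in Cimicifugae than in Citri for 8 genes, where 0.996% of all genes were called higher in that test of the difference. It was lower for NFE2L2 (−0.23 ± 0.05), where 0.336% were called lower. The largest differences were those of GCLM (0.93 ± 0.07) and SLC7A11 (0.88 ± 0.12), and the smallest that of GSR (0.18 ± 0.05, adjusted p = 0.0437). The GSR difference missed the threshold without any 1 of the 12 libraries (adjusted p of 0.0600 to 0.138).

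Coptidis and Bupleuri share doses but not a set, so set and extract cannot be told apart. All 9 were higher in Coptidis at 280 µg/mL, where 31.4% of all genes were called higher, with SLC7A11 at 2.70 ± 0.09, TXNRD1 at 1.69 ± 0.05 and SRXN1 at 1.38 ± 0.04. GSR differed least (0.37 ± 0.04). All 9 were also higher at 56 µg/mL, where 24.5% of all genes were called higher, with SLC7A11 at 2.54 ± 0.09. At 11.2 µg/mL all 9 were higher again, where 16.2% were, with SLC7A11 at 1.34 ± 0.09 and NFE2L2 at 0.25 ± 0.04. The change between low and high dose, which compares libraries within a set, was larger in Coptidis for 8 genes, where 21.7% of all genes were called higher. GSR was the exception, with a difference of 0.07 ± 0.05 and a 95% interval of −0.04 to 0.18.

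NFE2L2 stood apart from the other 8. Its Pearson r with the mean of the others over 25 group means was 0.316, while the other members ranged from 0.821 (OSGIN1) to 0.981 (GCLC) against the mean of the rest. Without the 3 Coptidis groups it was 0.054 for NFE2L2 and 0.610 (OSGIN1) to 0.981 (TXNRD1) for the others. These are descriptions over groups that share sets and scaling.

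Banhasasim-tang had 1 library per dose and therefore no test. At 500 µg/mL 6 of the 9 genes were at least 2-fold above the vehicle mean, where 2.98% of all genes were. SLC7A11 stood at 242 CPM, against 56.6, 56.8 and 53.6 CPM in vehicle, a log2 ratio of 2.12. GCLM was at 1.44, SRXN1 at 1.28, NQO1 at 1.16, TXNRD1 at 1.10 and OSGIN1 at 1.05, while GCLC was at 0.94, GSR at 0.64 and NFE2L2 at 0.02. At 100 µg/mL the 8 genes other than NFE2L2 lay at log2 ratios of 0.38 (GCLC) to 0.90 (GCLM). NFE2L2 was at 0.08, with 296 CPM, against at most 282 CPM in vehicle. The library at 20 µg/mL, which stood apart, had 1 gene at least 2-fold higher, OSGIN1 at 115 CPM (1.51), where 19.1% of all genes were. It had 1 at least 2-fold lower, SLC7A11 at 25.6 CPM (−1.11), where 18% of all genes were, and NFE2L2 was at 145 CPM (−0.95).

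Other genes of the pathway were counted in lists by role at the high doses against vehicle. The shares of all genes called higher were 34.5% in Coptidis, 19.9% in Bupleuri, 12.1% in Cimicifugae, 11.2% in Aconiti, 9.49% in Yijung-tang and 7.73% in Citri, and 33% were called lower in Coptidis. Of 9 genes that control NRF2, 7 rose and 2 fell under Coptidis, with a median log2 fold change of 0.76 beside 0.00 over all tested genes. Under Bupleuri and under Cimicifugae 5 rose and 1 fell, under Aconiti 4 rose and 1 fell, 4 rose under Yijung-tang and 2 under Citri. A single fall among 9 is near or below the share of all genes called lower in Bupleuri (19.1%), Cimicifugae (10%) and Aconiti (12%). SQSTM1, which draws KEAP1 into autophagy, rose in these 6, from 0.26 ± 0.05 in Citri to 2.57 ± 0.05 in Coptidis, where it stood at 1371 ± 72.5 CPM (SD, n = 2), against 232 ± 5.59 CPM in vehicle (SD, n = 3). KEAP1 rose in the same 6, by 0.27 ± 0.05 (Citri) to 0.65 ± 0.06 (Coptidis). MAFF, a small MAF partner of NRF2, rose by 2.90 ± 0.08 in Coptidis and 1.40 ± 0.08 in Bupleuri. In Zizyphi SQSTM1 (0.13 ± 0.06, adjusted p = 0.170) and KEAP1 (0.12 ± 0.06, adjusted p = 0.251) missed the threshold. Against the extract's own low dose, KEAP1 rose by 0.13 ± 0.05 (Bupleuri) to 0.37 ± 0.06 (Coptidis), but not in Citri. There KEAP1 (0.07 ± 0.05, edgeR adjusted p = 0.789), SQSTM1 (0.17 ± 0.05, 0.0921) and all other listed genes were not called, where 130 of 16675 genes were. Of the 9, 7 rose and 0 fell in Coptidis against its low dose, where 5157 and 4885 of 16675 genes were called higher and lower.

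Of 4 exporters of glutathione conjugates, 4 rose in Bupleuri and Yijung-tang, 3 in Coptidis and Cimicifugae, 2 in Aconiti and 1 in Citri, with the shares of all genes called higher as above. The median log2 fold change of the 4 was 1.51 in Coptidis. ABCC4, another exporter of organic anions, was not called in Coptidis (0.12 ± 0.09, adjusted p = 0.251). ABCC2, the canalicular exporter, was at 1.86 ± 0.10 in Coptidis and 1.29 ± 0.09 in Bupleuri, and ABCC3 at 1.68 ± 0.06 in Coptidis. Of 5 measured genes of NADPH supply, TKT and TALDO1 of the pentose phosphate pathway rose in Coptidis (0.98 ± 0.05 and 0.59 ± 0.07), Bupleuri (0.58 ± 0.05 and 0.58 ± 0.06), Cimicifugae and Yijung-tang. IDH1, cytosolic isocitrate dehydrogenase, fell by 1.42 ± 0.05 in Coptidis.

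The remaining glutathione and thioredoxin genes moved less uniformly. Of 11 thioredoxin and peroxiredoxin genes under Coptidis 9 fell and 1 rose, where 33% of all genes were called lower and 34.5% higher, with a median log2 fold change of −0.49. The riser was TXN, thioredoxin itself (0.98 ± 0.14). All of PRDX1 to PRDX6, the peroxiredoxins, were among the falls, PRDX2 by 0.92 ± 0.08, and TXNRD3 fell by 1.32 ± 0.13. Against the low dose of Coptidis 8 of the 11 fell and 2 rose, where 4885 and 5157 of 16675 genes were called lower and higher. PRDX5 (−0.15 ± 0.11, edgeR adjusted p = 0.255) was not called there. Against vehicle in Bupleuri 1 rose (TXN, 0.80 ± 0.13) and 3 fell, where 19.9% of all genes were called higher and 19.1% lower. TXNIP, an inhibitor of thioredoxin, was at −0.77 ± 0.07 in Bupleuri. In Yijung-tang TXN rose (0.58 ± 0.14) and TXNIP fell by 0.89 ± 0.08. Of 15 genes of glutathione synthesis and use 3 rose and 8 fell under Coptidis, against the same shares of all genes, so rises were fewer than the share of all genes and falls more. Their median was −0.20. SLC3A2, the heavy chain that pairs with SLC7A11, rose by 1.65 ± 0.06, GLRX by 1.20 ± 0.09, and GGCT, of glutathione breakdown, fell by 1.43 ± 0.11. CHAC1, a glutathione-degrading enzyme, was the third riser, at 0.670 CPM under Coptidis, against 0.0316 CPM in vehicle, too low for a firm fold. Of the 15, 5 rose and 2 fell in Bupleuri, where 19.9% of all genes were called higher and 19.1% lower. In Cimicifugae 2 rose and 1 fell, where 12.1% were called higher and 10% lower. In Aconiti 3 rose and 0 fell (11.2% and 12% of all genes), and in Yijung-tang 4 and 0 (9.49% and 7.84%). In Citri 1 rose and 0 fell, where 7.73% of all genes were called higher and 1086 of 16675 lower. The counts in Cimicifugae and Citri are near or below those shares.

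**Figure D4:**
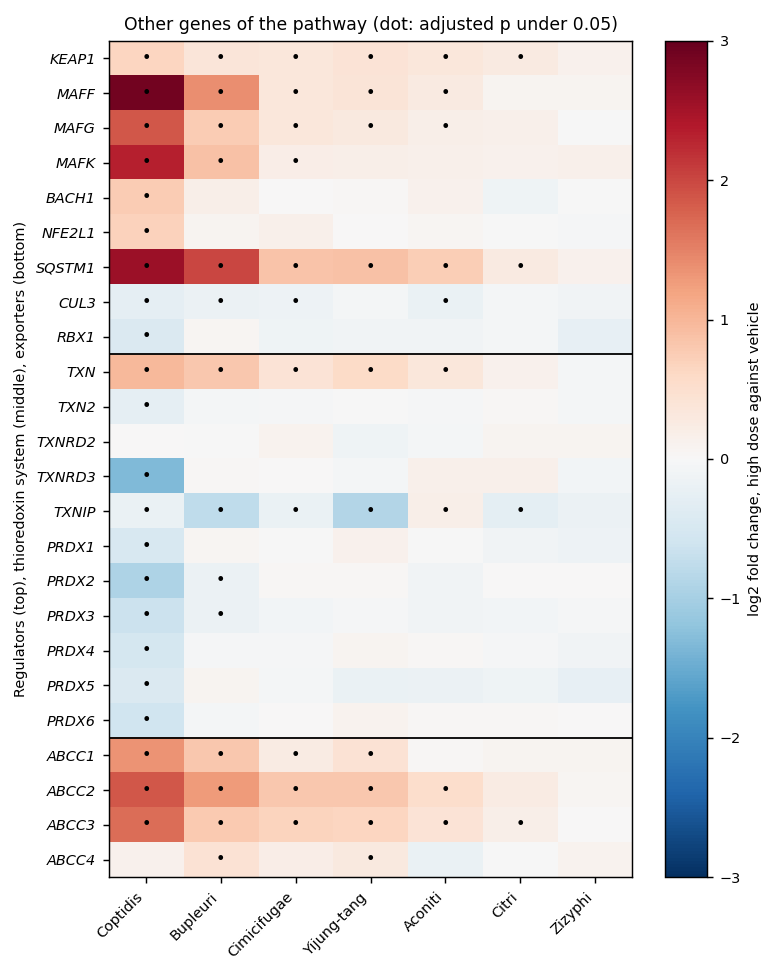
Log2 fold changes against vehicle at the high dose for NRF2 regulators (top), thioredoxin genes (middle) and exporters (bottom), coloured from blue (lower) to red (higher) over −3 to 3, with a dot at an adjusted p under 0.05. The regulator and exporter blocks are mostly red from Coptidis to Yijung-tang, while the peroxiredoxins are blue under Coptidis.

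The genes whose profile over the 25 group means was most like the mean of the 9 were DGKG (Pearson r 0.980), ABCG2 (0.979), GPAT3 (0.977), CD109 (0.968) and CYP4F11 (0.964), among 10673 genes compared. Without the 3 Coptidis groups they were DGKG (0.982), GPAT3 (0.976), CD109 (0.969), SPP1 (0.965) and AKR1B10 (0.958).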

How the data were processed

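Total RNA was made into directional libraries and sequenced as paired-end reads, per the labels' protocols. The authors deposited 1 table of RSEM expected counts, not normalized. The submitters' processing notes list the build GRCh38 and the tools RSEM 1.3.3, STAR 2.7.3a, Trim Galore 0.6.5 and FastQC 0.11.9, without an annotation release. Of 267 columns, 207 matched none of the samples and were left out. Expected counts were rounded to whole numbers, and 8.75% of the values were not whole. Totals per library, 18015555 to 29549531 counts, limit the precision of low levels. Each of the 48 replicate pairs differed by more than sampling noise.

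A single model of 57 libraries in 22 replicated groups was fitted with edgeR 4.0.16 (glmQLFit with robust estimation, glmQLFTest, TMM scaling) in R 4.3.3, after a filter by group that kept 16675 genes. P-values were adjusted over those genes by the Benjamini-Hochberg method and called under 0.05. The SE was approximated as the size of the log2 fold change over the root of the F statistic. CPM values were scaled by TMM over all 60 libraries, and TPM values were computed over the tested genes from the rounded counts and union exon lengths of GENCODE 29. For Banhasasim-tang, with no replicates, each library's log2 ratio to mean vehicle used a prior count of 2.

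The members and gene lists were chosen with earlier results of these data known. All 9 members were read in each comparison. From each list of other pathway genes, the rule took up to 2 called genes per high-dose comparison with the largest absolute log2 fold change. Further values of those genes follow from it, and the remaining KEAP1, peroxiredoxin and GLRX values were picked after their values were seen. For likeness, the rule took the 5 genes outside the members, at a mean of at least 5 CPM, with the highest Pearson r.

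Alternatives were a replicate block, DESeq2 1.42.0, 33790 genes with no filter, RLE scaling, separate fits, each library left out in turn (57 refits), a set without Bupleuri low replicate 3, and offsets for GC content and length, which 99.3% of the tested genes had. Leaving out libraries at the medium and low doses was added after seeing the data. The tests were tested on simulated data with known changes.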

Additional observations from a re-analysis of the deposited data

Results flagged for a closer look

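The change between the low and the high dose differed between extracts in a test of that difference by edgeR, which is what drew attention to 17 values. Between Cimicifugae and Citri, which share a set and doses, the difference in log2 change (with its SE) passed the threshold for all 9 genes. Of all tested genes 0.996% were called higher and 0.336% lower in that difference. The 9 values were GCLC (0.46 ± 0.06), GCLM (0.93 ± 0.07), SLC7A11 (0.88 ± 0.12), GSR (0.18 ± 0.05), TXNRD1 (0.34 ± 0.06), SRXN1 (0.50 ± 0.06), NQO1 (0.65 ± 0.09), OSGIN1 (0.56 ± 0.11) and NFE2L2 (−0.23 ± 0.05). A positive value means a larger rise with dose in Cimicifugae, and for NFE2L2 the change was −0.14 ± 0.04 in Cimicifugae and 0.09 ± 0.04 in Citri. The GSR difference missed the threshold without any 1 of the 12 libraries (adjusted p up to 0.138).

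Between Coptidis and Bupleuri the difference in log2 change passed the threshold for 8 genes, each larger in Coptidis. Far more of all tested genes were called in that difference, 21.7% higher and 3721 of 16675 lower. The 8 values were GCLC (0.86 ± 0.07), GCLM (0.68 ± 0.08), SLC7A11 (1.36 ± 0.13), TXNRD1 (1.33 ± 0.07), SRXN1 (0.93 ± 0.06), NQO1 (0.65 ± 0.10), OSGIN1 (0.55 ± 0.12) and NFE2L2 (0.25 ± 0.06). For NFE2L2 the change between low and high dose was 0.04 ± 0.04 in Coptidis and −0.20 ± 0.04 in Bupleuri. The low Bupleuri dose in this difference includes replicate 3, which stood apart. Without it the 8 differences ran from 0.22 (NFE2L2) to 1.52 (SLC7A11), and all still passed the threshold.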

How the results depend on the processing

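Over the 16 comparisons at the high dose, DESeq2, RLE scaling and the fit with a replicate block each kept the direction and side of the threshold of all 144 values. The replicate block left SLC7A11 under Coptidis at 4.24 on the log2 scale. Same-numbered libraries deviated together with correlations of −0.051 to 0.070 where 3 pairs existed, so the numbers were not read as pairs. With no filter 133 values held, 7 lost and 4 gained their call. Offsets for GC content and length lost 2 and gained 4, leaving out Bupleuri low replicate 3 gained 5, and separate fits gained 7. Leaving out 1 library changed 22 of 774 values, 21 losses and 1 gain, and 0 values reversed under any of these. For Zizyphi 0 members were called at the high dose against vehicle, where 606 of 16675 genes were. With no filter the count was 1, where 864 of 33790 genes were called, and with offsets 1, where 230 of 16675 were. It was 2 without Bupleuri low replicate 3, where 1724 of 16661 were called, and 3 in a separate fit, where 1863 of 15319 were. Against its low dose the Zizyphi count was 1 under each of those 4 settings, SLC7A11 at −0.36 to −0.39. In the same order 56, 3, 3 and 2 of all genes were called there. In Citri, SLC7A11 against vehicle passed as lower with no filter (adjusted p = 0.0329), without Bupleuri low replicate 3 (0.00531), in a separate fit (0.0214) and without Citri high replicate 2 (0.0492). The NFE2L2 falls in Aconiti and Yijung-tang were lost with no filter (0.380 and 0.531) and with offsets (0.157 and 0.179). The causes were not tested.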
